A study of Mus musculus with 6 samples.

Results

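The genes described are Ly6a, Ly6e, Ly6c1, Ly6c2, Ly6d and Ly6k, 6 members of the lymphocyte antigen 6 (Ly6) family that includes the gene of the stem cell antigen Sca1. They were found by matching the Ensembl identifiers of the deposited table, without their version, to these gene symbols, which gave 6 of the 41128 genes in the table. Long-term repopulating hematopoietic stem cells, the bone marrow cells that can rebuild the blood of a transplanted host, had been sorted from C57BL mice and their poly(A) RNA sequenced. The mice had received either the vehicle DMSO (3 libraries) or YH250 at 2 mg per kg under the skin (3 libraries), and marrow was taken 16 h later. YH250 is named in the series title as a p300/catenin antagonist, where p300 is a coactivator and catenin its partner in Wnt signalling. The sort kept cells without lineage markers, CD41 or CD48 and with Sca1, c-Kit and CD150, in both groups. The labels name no genetic change in the mice, and give neither their age and sex nor how many animals went into a library. They number the libraries 1, 2 and 3 in each group without saying what a number stands for, so p-values measure only the spread between these libraries.

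Ly6 proteins are small surface proteins built on a disulfide-bonded fold that is also found in the urokinase receptor. Most of them are held to the outer membrane by a glycosylphosphatidylinositol (GPI) anchor, and in the mouse many of their genes lie in a cluster on chromosome 15. Ly6a is the gene of Sca1, by which mouse blood stem cells are sorted, and interferons are known to raise its transcription in marrow cells.

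All 6 genes lie on chromosome 15 of GRCm38 (mm10), in the GENCODE M21 annotation, and all are protein-coding. Ly6d (chr15:74762056-74763620), Ly6k (chr15:74796874-74799986), Ly6a (chr15:74994877-74998031), Ly6c1 (chr15:75044018-75048830) and Ly6c2 (chr15:75108158-75111970) are on the minus strand. Ly6e (chr15:74955051-74959905) is on the plus strand.

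Sequence limits how well some of these genes can be told apart. The coding sequences of Ly6c1 and Ly6c2 are 396 bases each and differ at 9 of them, so 387 bases (97.7%) are identical and the longest identical run is 188 bases. Reads were 50 bases long. Of the 50-base stretches of its protein-coding transcripts, Ly6c1 shared 32.8% and Ly6c2 31.2% with another gene, mostly with each other, and Ly6a shared 19.0%, mostly with Ly6c1. No such stretch of Ly6e or Ly6d occurred in another gene. Ly6k shared 32.7%, all with Gm17189, a gene model on the opposite strand that was listed at 0 to 0.465 RPM. How shared reads were divided, and whether strand was used, are not given in sources used here, so the levels of Ly6c1 relative to Ly6c2 are uncertain. Coding bases 1 to 90 of the pair, from GENCODE M21, hold 6 of the 9 differences and are shown because they carry most of what separates the pair. They read 5′ to 3′, counted from the start codon, with the differing bases in capitals.
Ly6c1: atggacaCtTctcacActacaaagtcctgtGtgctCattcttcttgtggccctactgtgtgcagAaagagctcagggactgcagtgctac
Ly6c2: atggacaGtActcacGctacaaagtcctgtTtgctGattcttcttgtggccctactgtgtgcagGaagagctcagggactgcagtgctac

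The promoters of the same pair were compared. A RefSeq promoter table (GRCm38.p6) matched 2 of the 6 genes, Ly6c1 and Ly6c2, with 4 entries in all. The Ly6c1 and Ly6c2 levels reported below differed widely in spite of the similar coding sequence, although shared reads leave their relative level uncertain. A part of the promoters in that difference was not tested. For each gene, the 250 bases before its most upstream start are shown. They lie at chr15:75048838-75049087 for Ly6c1 and chr15:75111972-75112221 for Ly6c2, are written 5′ to 3′ on the minus strand, and were identical at 164 of the 216 positions where a base of one was aligned with a base of the other (75.9%). The other 68 columns of the alignment were gaps, to which a shift between the windows contributes. Capitals mark TATAAA.
Ly6c1: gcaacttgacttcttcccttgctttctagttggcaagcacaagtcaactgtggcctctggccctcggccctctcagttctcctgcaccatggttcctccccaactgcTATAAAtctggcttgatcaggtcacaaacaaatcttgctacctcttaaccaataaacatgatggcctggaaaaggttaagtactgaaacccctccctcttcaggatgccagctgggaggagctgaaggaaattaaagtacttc
Ly6c2: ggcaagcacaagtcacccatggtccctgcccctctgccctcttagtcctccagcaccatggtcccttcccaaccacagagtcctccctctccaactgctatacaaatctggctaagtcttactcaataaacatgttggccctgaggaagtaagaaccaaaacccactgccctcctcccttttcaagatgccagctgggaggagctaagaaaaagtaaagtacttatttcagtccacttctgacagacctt

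TATAAA began 143 bases before the Ly6c1 start. It was searched on both strands and held by 12.4% of 32851 promoter windows of this length. The interferon-stimulated response element, GAAA repeated after 2 bases of any kind (2.98% of windows), the gamma-activated site TTCNNNGAA (7.02%) and the TCF site ATCAAAG (3.21%) were also searched on both strands, and none of these letters was in the 4 windows of Ly6c1 and Ly6c2. With a single match in these windows, no overlap between patterns arose.

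Levels are in RPM, reads scaled to a common total for each library, obtained from the deposited values as described under processing. One RPM stood for 21.96 to 31.19 reads. The genes of a library together held 70.0% to 95.9% of that total, highest in both libraries numbered 3 (95.9% and 93.6%). In RNA, genes whose products the sort used went against it in part, and not in the same libraries for each gene. Cd48, whose product the sort excluded, reached 258 RPM in DMSO 3 and 252 in YH250 3, against 10.2 and 13.1 RPM in DMSO 1 and YH250 1. It was in between in DMSO 2 and YH250 2, at 31.5 and 66.9 RPM, and higher in number 2 than in number 1 (limma adjusted p = 0.043). Slamf1, which encodes the required CD150, was highest in DMSO 1 and YH250 1, at 35.5 and 31.5 RPM, and between 0.515 and 4.69 RPM in the other 4, lowest in DMSO 2. Itga2b, which encodes the excluded CD41, ran opposite to Cd48 and was highest in DMSO 1 and YH250 1, at 43.7 and 37.4 RPM. It was at 15.3 and 26.3 RPM in DMSO 2 and YH250 2, and at 5.65 and 7.13 RPM in DMSO 3 and YH250 3. Results are therefore given by replicate number and, for treatment, also without both libraries of each number in turn. In bulk RNA, a change in the number of cells of a type and a change in RNA per cell cannot be told apart.

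**Figure D1:**
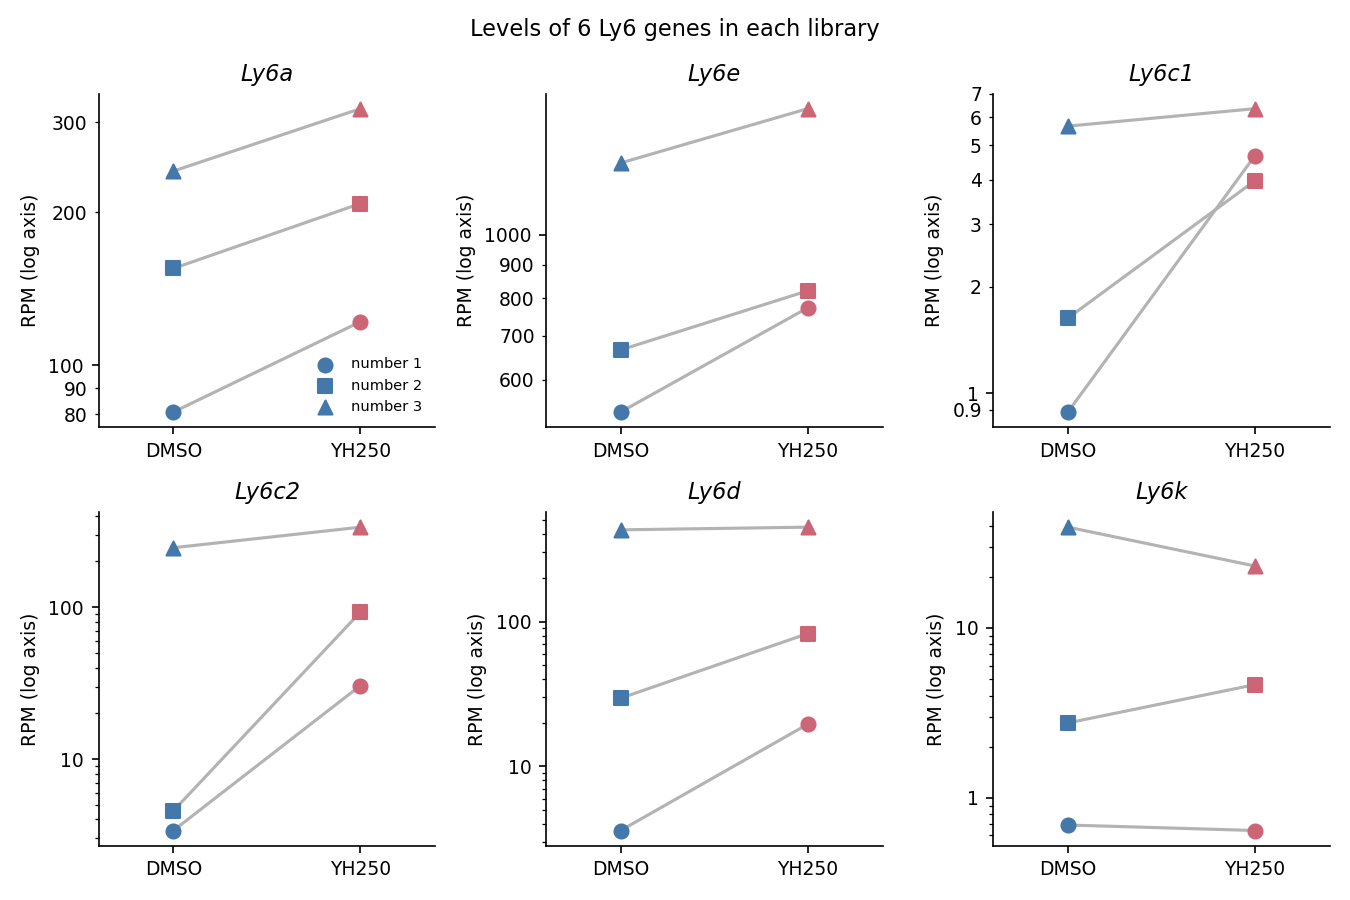
Level of each Ly6 gene in each library, in RPM on a log axis whose range differs between panels, with DMSO in blue and YH250 in red; the marker gives the replicate number and a grey line joins libraries of 1 number. Both libraries numbered 3 lie above the other 4 in every panel, and the lines slope up at every number in all panels but that of Ly6k.

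Per kilobase of its longest protein-coding transcript, Ly6e had the highest mean of the 6, at 412 RPM per kb over the 6 libraries, above 98.6% of the 13597 genes tested. Ly6d (227 RPM per kb), Ly6a (196) and Ly6c2 (145) followed in that mean, Ly6k was at 15.0 and Ly6c1 at 4.58 RPM per kb. The order was not the same in every library. In DMSO 3, Ly6d (578 RPM per kb) was above Ly6e (565). Ly6d ranged from 4.85 to 603 RPM per kb and Ly6c2 from 4.12 to 409, and both ranges enclosed that of Ly6a (84.7 to 334). Ly6a was above both in every library numbered 1 or 2, as in DMSO 1 (84.7 against 4.85 for Ly6d and 4.12 for Ly6c2). It was below both in the libraries numbered 3, as in DMSO 3 (252 against 578 and 299). Their order in the mean thus rests on the libraries numbered 3. The upper end of the Ly6d range overlapped that of Ly6e (235 to 684). Ly6e exceeded Ly6a 1.65 to 2.77 times per kb in each of the 6 libraries. The 6 genes summed to 625, 860 and 2251 RPM across DMSO libraries 1 to 3, against 950.0, 1213 and 2695 RPM across YH250 libraries 1 to 3. The share of Ly6e in this sum was 85.7% in DMSO 1 and 57.3% in DMSO 3.

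Ly6a, the Sca1 gene, was at 80.9, 155 and 241 RPM across DMSO libraries 1 to 3, against 122, 208 and 319 RPM across YH250 libraries 1 to 3. Each YH250 library was above the DMSO library of its number, but the groups overlapped, since YH250 1 was below both DMSO 2 and DMSO 3. The means were 159 ± 80.0 RPM (SD, n = 3) with DMSO and 216 ± 99.1 RPM (SD, n = 3) with YH250. The difference on the log2(RPM + 1) scale was 0.47 ± 0.45 (SE), with a limma unadjusted p of 0.322 and adjusted p of 0.999. By number the ratio of YH250 to DMSO was 1.5, 1.34 and 1.33, or 1.35, 1.19 and 1.36 when each library was scaled to its gene total.

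Ly6e encodes a GPI-anchored protein that serves as a receptor for syncytin-A in the mouse placenta and limits infection by coronaviruses. It was at 535, 666 and 1289 RPM across DMSO libraries 1 to 3, against 773, 821 and 1561 RPM across YH250 libraries 1 to 3. Again each YH250 library was the higher one of its number, and DMSO 3 was above YH250 1 and 2. The means were 830.1 ± 403 RPM (SD, n = 3) with DMSO and 1052 ± 442 RPM (SD, n = 3) with YH250. The log2 difference was 0.37 ± 0.38 (SE), with a limma unadjusted p of 0.352 and adjusted p of 0.999. By number the ratio was 1.44, 1.23 and 1.21, or 1.3, 1.1 and 1.24 when each library was scaled to its gene total.

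Ly6c1 and Ly6c2 encode the forms of the Ly6C antigen, which is carried by monocytes, some T cells and endothelial cells. Ly6c2 was at 3.38, 4.565 and 246 RPM across DMSO libraries 1 to 3, against 30.4, 92.8 and 336 RPM across YH250 libraries 1 to 3. Both libraries numbered 3 stood far above the rest, and within each number the YH250 library was the higher. The ratio of YH250 to DMSO was 9.0, 20.3 and 1.37 for numbers 1, 2 and 3, and the log2 difference was 2.46 ± 1.93 (SE), with a limma unadjusted p of 0.261 and adjusted p of 0.999. Without the libraries numbered 3 that difference was 3.46 ± 0.57 (SE, n = 2 a group), with a limma unadjusted p of 0.000219 and adjusted p of 0.94. Ly6c1 was low, at 0.887, 1.63 and 5.67 RPM across DMSO libraries 1 to 3, against 4.68, 3.98 and 6.35 RPM across YH250 libraries 1 to 3. DMSO 3 was above YH250 1 and 2, so the groups overlapped here too. The log2 difference was 0.88 ± 0.56 (SE), with a limma unadjusted p of 0.15 and adjusted p of 0.999. The ratio of Ly6c2 to Ly6c1 in RPM was 3.81, 2.8 and 43.4 across DMSO libraries 1 to 3, against 6.5, 23.3 and 52.9 across YH250 libraries 1 to 3, so it was not fixed, although reads may be shared.

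Ly6d, whose product marks the B cell-biased fraction of lymphoid progenitors, had the widest span of the 6 genes, 124-fold between its highest and lowest library. It was at 3.61, 29.6 and 430.1 RPM across DMSO libraries 1 to 3, against 19.6, 82.6 and 449 RPM across YH250 libraries 1 to 3. The libraries numbered 3 were nearly level with each other, and at numbers 1 and 2 the YH250 library was higher. The ratio of YH250 to DMSO was 5.42, 2.79 and 1.04 by number. The log2 difference was 1.22 ± 2.11 (SE), with a limma unadjusted p of 0.589 and adjusted p of 0.999, and its sign turned when DMSO 1 was left out (-0.32).

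Ly6k, best known from male germ cells, where its product acts with TEX101 in sperm migration, was at 0.691, 2.76 and 39.2 RPM in DMSO 1, 2 and 3. In YH250 1, 2 and 3 it was at 0.641, 4.635 and 23.2 RPM. It was the only one of the 6 that was not higher with YH250 at every number, being higher at number 2 and lower at numbers 1 and 3. The log2 difference was -0.06 ± 1.37 (SE), with a limma adjusted p of 0.999, and it turned positive when DMSO 3 (1.27), YH250 1 (0.88) or both libraries numbered 3 (0.27) were left out.

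**Figure D2:**
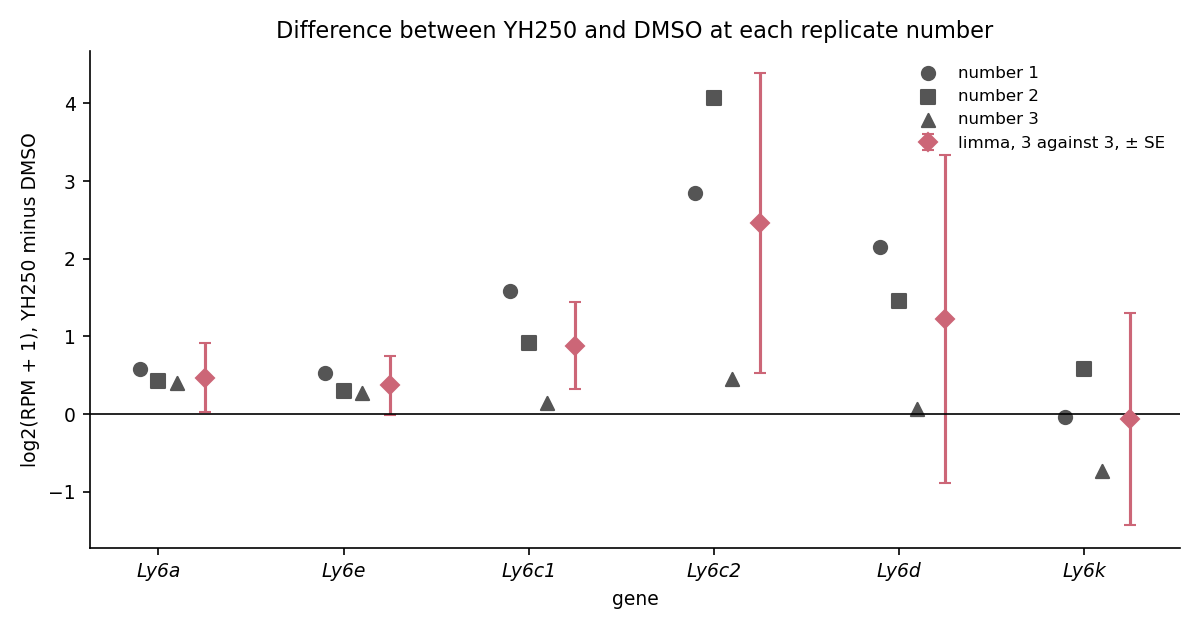
Difference between YH250 and DMSO in log2(RPM + 1) for each gene; grey markers are the differences within replicate numbers 1, 2 and 3, and red diamonds are the limma estimates over 3 against 3 libraries with their SE. Ly6a and Ly6e show close values at the 3 numbers (0.41 to 0.58 and 0.28 to 0.53), whereas the values of Ly6c2 lie between 0.45 and 4.08. The SE bars come from the fit without a block and also hold the spread between numbers.

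For treatment, 0 of the 6 genes passed the limma test at an adjusted p of 0.05, as did 0% of the 13597 genes tested. At an unadjusted p under 0.05 limma called 1.7% of tested genes (231) and 0 of the 6. The smallest exact two-sided permutation p that 3 against 3 libraries allow is 0.1, and the 6 genes had exact permutation p-values of 0.3 to 0.9. The permutation took no account of the replicate number. With the replicate number as a block, 0 genes passed the adjusted threshold, and 4 of the 6 (Ly6a, Ly6e, Ly6c2 and Ly6d) had an unadjusted limma p under 0.05, with values of 0.0117, 0.0366, 0.023 and 0.0046, beside 7.44% of all tested genes. Their adjusted p in the block was 0.66 each. The SE of the treatment difference in the block was 0.15 for Ly6a, 0.15 for Ly6e and 0.44 for Ly6c1. It was 0.73 for Ly6c2, 0.33 for Ly6d and 0.43 for Ly6k. The SEs given gene by gene above come from the fit without a block, so they also hold the spread between numbers. The median difference of the 6 was 0.68 on the log2 scale, and that of all tested genes was 0.02. Ly6a, Ly6e, Ly6c1, Ly6c2 and Ly6d, 5 of the 6, were higher with YH250 at all 3 numbers, a pattern that 16.1% of tested genes showed. In 0 of the 6 did the groups separate, against 3.79% of tested genes that were higher in every YH250 library than in every DMSO library.

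Without both libraries numbered 3 (2 against 2 libraries), the treatment difference on the log2 scale was 0.50 for Ly6a, 0.41 for Ly6e, 1.26 for Ly6c1, 3.46 for Ly6c2, 1.8 for Ly6d and 0.27 for Ly6k. There Ly6c2 and Ly6e (limma unadjusted p = 0.0484), 2 of the 6, had an unadjusted p under 0.05, beside 3.18% of 13446 genes tested, and the smallest adjusted p was 0.94. Without both libraries numbered 2 it was 0.49 for Ly6a, 0.40 for Ly6e, 0.87 for Ly6c1, 1.65 for Ly6c2, 1.11 for Ly6d and -0.39 for Ly6k, with limma unadjusted p-values of 0.292 to 0.861. Leaving out both libraries numbered 1 gave 0.41 for Ly6a, 0.29 for Ly6e and 0.53 for Ly6c1. It gave 2.26 for Ly6c2, 0.76 for Ly6d and -0.08 for Ly6k. The limma unadjusted p-values there were 0.3 to 0.954.

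The 6 genes also differed by replicate number. In number 3 against number 1, Ly6a, Ly6e, Ly6d and Ly6k, 4 of the 6, were higher at a limma adjusted p under 0.05, where 8.56% of tested genes were called (1164, of which 761 were higher) and 5.6% were called higher. The median difference of the 6 was 2.85 on the log2 scale, against 0.04 over all tested genes. The differences were 1.47 ± 0.19 (SE) for Ly6a (limma adjusted p = 0.00152) and 1.14 ± 0.19 for Ly6e (0.00603). They were 5.50 ± 0.41 for Ly6d (7.2e-05) and 4.23 ± 0.52 for Ly6k (0.00133). Ly6c2 differed by 4.62 ± 0.89 (0.0526) and Ly6c1 by 1.10 ± 0.54 (0.254), which did not pass.

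Each number has 1 library a group, and the sizes in the groups can be set side by side. From number 1 to number 3, Ly6a was 2.98 times as high with DMSO and 2.62 times with YH250. Ly6d was 119 times as high with DMSO and 22.9 times with YH250, and Ly6c2 72.7 and 11.0 times. The fold for Ly6k was 56.8 with DMSO and 36.1 with YH250. All 6 genes were higher in both libraries numbered 3 than in the other 4, as were 19.9% of tested genes. The lowest library was DMSO 1 and the highest YH250 3 for every one of the 6 but Ly6k, an order of extremes seen in 4.93% of tested genes. Ly6k was lowest in YH250 1 and highest in DMSO 3. Whether the number difference itself depends on treatment could not be tested with 1 library in each combination of number and treatment.

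Scaling moved this comparison. When each library was scaled to its gene total, the median difference of all genes between numbers 3 and 1 went from 0.04 to -0.28, and the calls from 761 higher and 403 lower to 465 higher and 891 lower. After quantile normalization they were 642 higher and 661 lower. On the gene total scale the 4 called genes were still higher at an adjusted p under 0.05, Ly6a by 1.12 and Ly6e by 0.78 on the log2 scale, and Ly6c2 also passed (4.32 ± 0.74, limma adjusted p = 0.0195). The call of Ly6d was lost without DMSO 2 (limma adjusted p = 0.0767) or YH250 2 (0.0821), with the difference still at 5.50, and that of Ly6e without DMSO 1 (0.1).

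In number 3 against number 2, Ly6e (0.94 ± 0.19, limma adjusted p = 0.0197), Ly6d (3.12 ± 0.41, 0.00331) and Ly6k (2.76 ± 0.52, 0.0161) were higher, 3 of the 6 beside 6.31% of tested genes called and 3.67% called higher. The Ly6e and Ly6d calls were lost without DMSO 2 (limma adjusted p = 0.0683 and 0.228) or YH250 2 (0.15 and 0.291), and that of Ly6k without DMSO 3 (0.232). Ly6a differed by 0.62 ± 0.19 (limma adjusted p = 0.0745) and did not pass. In number 2 against number 1, 0 of the 6 and 0.199% of tested genes passed in limma, while 14.3% of tested genes and Ly6a, Ly6d and Ly6k had an unadjusted p under 0.05 (0.00114, 0.000195 and 0.0191). There the differences of Ly6a and Ly6d were 0.85 (limma adjusted p = 0.126) and 2.38 (0.0611). Leaving out YH250 3 brought both past the threshold (limma adjusted p = 0.0359 and 0.000731), and leaving out DMSO 2 did so for Ly6k (0.0187).

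**Figure D3:**
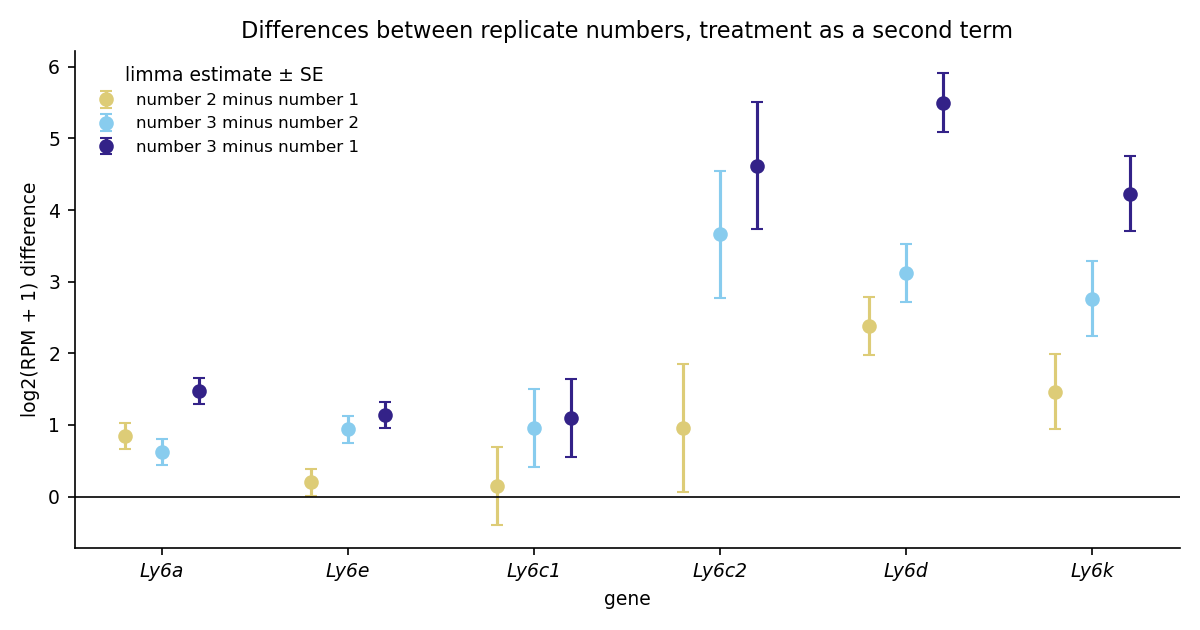
Differences of each gene between replicate numbers in log2(RPM + 1), with treatment as a second term in limma; points are estimates and bars their SE, from 2 libraries per number. Ly6d, Ly6k and Ly6c2 differ between numbers 3 and 1 by 4.23 to 5.50, and Ly6a, Ly6e and Ly6c1 by 1.10 to 1.47.

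Markers of other marrow cells moved with the libraries numbered 3, and their part in the Ly6 differences was not tested. Of 13 tested B cell and plasma cell markers, 12 were higher in number 3 than in number 1 (limma adjusted p under 0.05) and 0 lower, beside 5.6% of all tested genes called higher and 2.96% called lower. These all-gene shares apply to the other lists too. Their summed level was 330.0 to 14981.5 RPM in the DMSO libraries and 825 to 27273 RPM in the YH250 libraries, led by the immunoglobulin genes Ighm and Jchain. Pax5 was listed at 0 in some libraries. Multipotent and lymphoid-primed progenitor genes were higher in number 3 for 10 of 12, with Dntt, the polymerase that adds bases to rearranging antigen receptor genes, at 5.76 and 10.2 RPM in DMSO 1 and YH250 1, against 633 and 614 RPM in DMSO 3 and YH250 3. Their sums were 327 to 2794 RPM with DMSO and 417 to 2642 RPM with YH250.

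Of 16 T and NK cell markers 7 were higher (sums of 78.4 to 676 RPM with DMSO and 170 to 641 RPM with YH250, with Ncr1 and Gzma listed at 0 in some libraries). Ly6C is best known from monocytes, and of 16 tested monocyte and granulocyte markers 4 were higher (sums of 332 to 914 and 453 to 829 RPM, with F13a1 and Fcnb at 0 in some). Mpo, a granule enzyme of early myeloid cells, was at 0.810 and 17.1 RPM in DMSO 1 and YH250 1 and at 175 and 223 RPM in DMSO 3 and YH250 3. Prtn3 and Lyz2, of higher mean level in the same list, were not called between these numbers. Prtn3 was at 175 and 187 RPM in DMSO 1 and YH250 1, against 222 and 193 RPM in the libraries numbered 3. Lyz2 was at 128 and 189 RPM, against 124 and 101 RPM. Ly6g, the granulocyte antigen gene of the same cluster, reached at most 0.0464 RPM in any library. Stem cell genes went the other way, 18 of 20 being lower in number 3 than in number 1 and 0 higher. Their sums were 935 to 2576 RPM with DMSO and 671 to 2258 RPM with YH250, led by Angpt1, Hlf and Meis1. Of the erythroid and megakaryocyte markers 1 of 11 was higher and 3 lower (sums of 821 to 2094 and 582 to 1835 RPM).

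For treatment, the same marker lists held 0 calls in limma, as did all genes, and the mean differences of the lists lay in both directions. All 13 B cell and plasma cell markers had a higher mean log2 level with YH250 (median difference 0.65), as had 14 of 16 T and NK cell markers (0.53), 9 of 12 multipotent and lymphoid-primed progenitor genes (0.35), 9 of 16 monocyte and granulocyte markers (0.19) and 12 of 14 endothelial and stromal markers (0.42), beside a median of 0.02 and 51.7% of all tested genes. At all 3 numbers, 4 of 13 B cell and plasma cell and 3 of 16 T and NK cell markers were higher. So were 2 of 12 progenitor genes, 2 of 16 monocyte and granulocyte and 1 of 14 endothelial and stromal markers. The share of tested genes was 16.1%. Lower at all 3 numbers were 0, 0, 1, 2 and 0 in the order of these lists, beside 15.0% of tested genes. Of the stem cell genes 5 of 20 had a higher mean with YH250 (median difference -0.30), 0 being higher and 4 lower at all 3 numbers, against 16.1% and 15.0% of tested genes. Of the erythroid and megakaryocyte markers 3 of 11 had a higher mean (-0.15). The endothelial and stromal list summed to 471 RPM in YH250 2 and to between 70.1 and 135 RPM in the other 5 libraries, with Col3a1 and Pdgfra at 0 in some. In number 1, where Slamf1 was highest, the B cell and plasma cell sum was 330.0 RPM with DMSO and 825 RPM with YH250. Of this sum, Ighm made up 59.1 and 368 RPM and Jchain 33.3 and 114 RPM. The part of these lists in the higher Ly6 levels with YH250 was not tested.

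**Figure D4:**
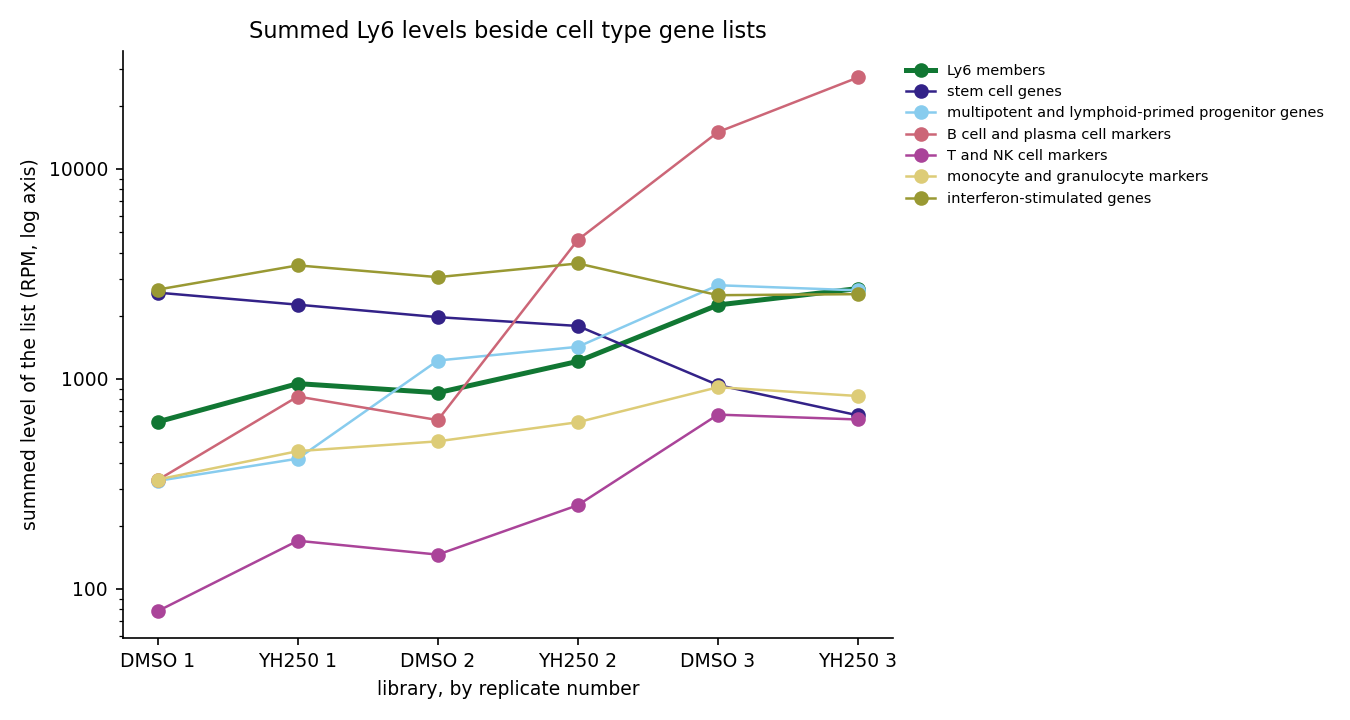
Summed level of the 6 Ly6 genes and of 6 gene lists in each library, in RPM on a log axis, with libraries ordered by replicate number; lines only join the points of a list. The Ly6 sum (625 to 2695 RPM) and the B cell and plasma cell sum (330.0 to 27273 RPM) are highest in the libraries numbered 3, where the stem cell sum is lowest.

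Of the genes that the sort used, Ly6a was 1 of 5. Ly6a and Cd48 were higher and Slamf1 and Itga2b lower in number 3 than in number 1 (limma adjusted p under 0.05). Kit, which encodes the required c-Kit, was at 318, 265 and 213 RPM across DMSO libraries 1 to 3, against 218, 160.1 and 130 RPM across YH250 libraries 1 to 3. It thus ran opposite to Ly6a at each number, with a treatment difference of -0.66 ± 0.26 (limma unadjusted p = 0.0342, adjusted p = 0.999).

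Few genes of the wider family could be tested. Of 37 other Ly6 and urokinase receptor family genes listed, 34 were in the table and 8 reached the minimum mean of 1 RPM, namely Ly6i, Ly6g5b, Lynx1, Gpihbp1, Lypd1, Cd59a, Cd59b and Plaur. None of these 8 passed the limma test in any comparison, against 8.56% of tested genes for number 3 against number 1. With 8 genes, 0 calls is near that share. Ly6i, Ly6g5b, Lynx1, Gpihbp1 and Lypd1 had means of only 1.03 to 2.33 RPM, close to the minimum. Of the 34, 9 were listed at 0 in every library. Cd59a, which guards cells against complement, was at 11.4 to 27.8 RPM with DMSO and 11.4 to 23.6 RPM with YH250. Plaur, the urokinase receptor gene, was at 18.8 to 23.9 and 23.7 to 26.1 RPM. Gpihbp1, which carries lipoprotein lipase in capillary endothelium, was the only one of the 8 higher with YH250 at all 3 numbers. It was at 1.04, 1.43 and 0.364 RPM across DMSO libraries 1 to 3, against 4.58, 4.16 and 0.584 RPM across YH250 libraries 1 to 3 (difference 0.92 ± 0.61, limma adjusted p = 0.999). Ly6i, which shares sequence with Ly6a and Ly6c1, was at 0.471, 0.0378 and 5.75 RPM across DMSO libraries 1 to 3, against 0.0999, 3.24 and 4.40 RPM across YH250 libraries 1 to 3. Like the 6 genes, it was highest in the libraries numbered 3 (difference from number 1 2.25 ± 0.67, limma adjusted p = 0.0701).

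Position in the genome was compared next. Of 72 annotated genes of the table that start within 1 Mb of Ly6a, 25 were tested, the 6 genes and 19 others. In number 3 against number 1, 0 of the 19 were called higher, beside 5.6% of all tested genes. Of the 19, 1 was called lower, beside 2.96% of all tested genes. It was Naprt, which makes a precursor of NAD (-1.99, limma adjusted p = 0.0283). The median difference of the 19 was 0.04 between numbers and 0.19 for treatment. Of the 19, 3 were higher with YH250 at all 3 numbers, beside 16.1% of all tested genes. With 19 genes, counts this near the all-gene shares do not set the neighbours apart from other genes.

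**Figure D5:**
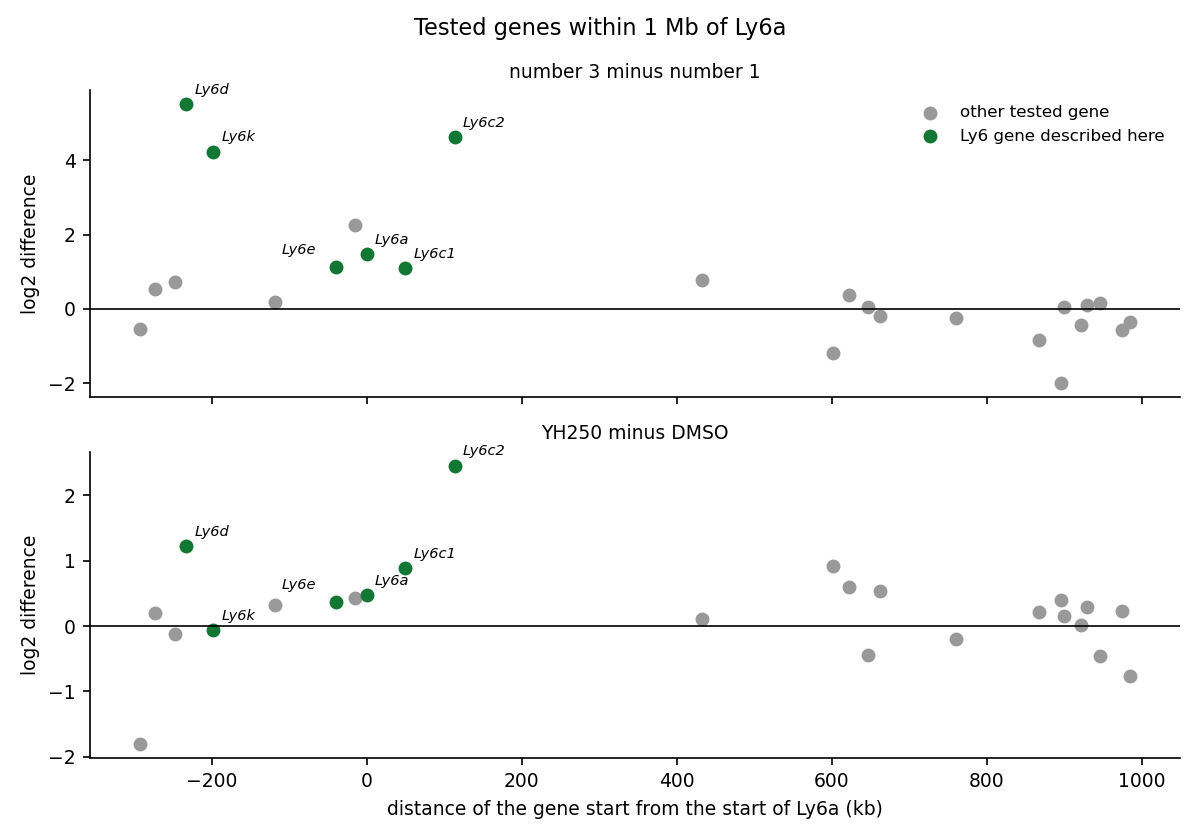
Log2 difference of each tested gene that starts within 1 Mb of Ly6a, against the distance of its start from that of Ly6a in kb along chromosome 15; the upper panel is number 3 minus number 1 and the lower YH250 minus DMSO. Ly6d, Ly6k and Ly6c2 (green, 4.23 to 5.50 in the upper panel) lie among grey neighbours that, like most tested genes, were not called higher.

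The GPI anchor is made and attached by enzymes of the endoplasmic reticulum. Of 27 tested genes of this pathway, 0 were called for treatment in limma, beside 0% of all tested genes. In number 3 against number 1, 1 of them was called lower, beside 2.96% of all tested genes. The median differences were 0.08 for treatment and 0.12 between these numbers on the log2 scale. Dpm1, a subunit of the enzyme that makes the mannose donor for the anchor, was at 70.9 to 80.6 RPM with DMSO and 68.1 to 79.4 RPM with YH250.

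Interferon is a known inducer of Ly6a, and 46 interferon-stimulated genes, a list that holds none of the 6, were read beside it. For treatment 0 of 46 were called in limma, 37 had a higher mean with YH250 (51.7% of all tested genes), and 19 were higher at all 3 numbers (16.1% of all tested genes). Their median difference was 0.30, against 0.02 over all tested genes. By number, 1 was called higher and 5 lower in number 3 against number 1 (5.6% and 2.96% of all tested genes), with a median of -0.07. Ifitm3, an antiviral membrane protein gene, was at 464, 458 and 303 RPM across DMSO libraries 1 to 3, against 671, 568 and 296 RPM across YH250 libraries 1 to 3. It was higher with YH250 at numbers 1 and 2 and nearly level at number 3 (treatment difference 0.27 ± 0.33, limma adjusted p = 0.999), and lower in number 3 than in number 1 (-0.89 ± 0.20, limma adjusted p = 0.0261). Of 14 interferon receptors and signal transducers, 0 were called for treatment and 1, the receptor subunit gene Ifnar2, was higher in number 3 than in number 1 (1.00 ± 0.21, limma adjusted p = 0.0202).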

How the data were processed

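Poly(A) RNA of 3 DMSO and 3 YH250 libraries was sequenced as 50-base single-end reads after full-length cDNA amplification, per the labels' protocols. Per the submitters' processing notes, the tools were CASAVA 1.8.2, TopHat2 2.0.8 and Partek and the build mm10, with no roles given. The deposited table holds a normalized signal for each gene and library, made by the authors, whose unit is not stated. Every column has a minimum of 1 and steps of a constant size above it, so RPM was taken as the value minus the offset of 1. Among values of at most 20 reads, only 61.1% to 68.4% were whole to within 0.1 read, so no count model was used. One read was worth 0.0321 to 0.0455 RPM, which limits precision for Ly6c1 and Ly6k.

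Symbols were matched for 40254 of 41128 genes through their Ensembl IDs, with GENCODE M21 for positions. A mean over the libraries of 1 RPM or more was required, which left 13597 genes, all 6 members included. They were tested on log2(RPM + 1) in limma 3.58.1 (R 4.3.3) by lmFit and by eBayes with the trend and robust options, with Benjamini-Hochberg adjustment over all of them at 0.05. Fold changes on this scale understate those of low genes. Treatment was fitted without a block, and replicate numbers, of 2 libraries each, alongside a treatment term. The fit was also run on simulated data with the same independent noise for every gene, unlike these libraries. That run does not measure how well the fit finds changes in these data. Deviations from the group means correlated at 0.551, 0.256 and 0.696 between libraries numbered 1, 2 and 3, all above 0.1, so the numbers were taken to pair the libraries, although the labels do not say so and DMSO 2 with YH250 1 (0.144) and DMSO 1 with YH250 2 (0.109) exceeded it too.

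The members and the 13 gene lists were chosen with earlier results of these data known. Named genes are the members, tested family members and neighbours, all sort marker genes, and from other lists only genes among the 3 of highest mean level. Ly6g and the markers named as listed at 0 were named after their values were seen. Alternatives changed the pseudocount, minimum mean, scaling and library weights, added the block, or left out libraries.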

Additional observations from a re-analysis of the deposited data

How the results depend on the processing

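For treatment, the count of genes called was 0 under all 18 alternatives, the replicate block included (0 genes, smallest adjusted p 0.66). The pairing therefore changed no call among the 6 genes. Genes called between numbers 3 and 1 (1164) became 180 with no minimum mean, 2641 with array weights and 417 to 3010 with 1 library left out. Between numbers 2 and 1 (27) they became 0 with no minimum mean (2237 at an unadjusted limma p under 0.05), 75 with a minimum mean of 5 RPM, 46 after quantile normalization and 39 to 1764 with 1 library left out. Between numbers 3 and 2 (858) they became 42 with no minimum mean and 250 to 3137 with 1 library left out. Where a library was left out, the lone library of its number was assumed to vary like the others.

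With 1 library left out, the treatment difference spanned 0.06 to 0.84 for Ly6a, 0.05 to 0.74 for Ly6e, 0.50 to 1.41 for Ly6c1, 1.43 to 4.34 for Ly6c2, -0.32 to 2.95 for Ly6d and -1.06 to 1.27 for Ly6k. It turned for Ly6d without DMSO 1 (-0.32) and for Ly6k without DMSO 3 (1.27), without YH250 1 (0.88) and without both libraries numbered 3 (0.27). Between numbers 2 and 1 it turned for Ly6c1 without DMSO 1 (-0.39) and for Ly6c2 without YH250 2 (-0.25), where leaving out 1 library gave -0.39 to 0.67 and -0.25 to 2.18. The Ly6a and Ly6k calls between numbers 3 and 1 held under all 13 alternatives. With no minimum mean the Ly6e, Ly6d and Ly6k calls between numbers 3 and 2 were lost (limma adjusted p = 0.108, 0.12 and 0.126), and with array weights that of Ly6d (0.0633). Ly6c2 passed between numbers 3 and 1 with a pseudocount of 0.5 RPM (0.0362) and without either library numbered 3 (0.00421 and 1.81e-06), and between numbers 3 and 2 when scaled to the gene total (0.0443) or without YH250 3 (2.86e-05). Ly6d passed between numbers 2 and 1 with a pseudocount of 5 RPM (0.0441), after quantile normalization (0.0455) and without DMSO 3, YH250 1 or YH250 3 (0.00406, 1.7e-05 and 0.000731). The causes were not tested.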

Other observations

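The genes whose log2 level ran closest to each Ly6 gene over the 6 libraries were taken from 8577 genes whose mean was 10 RPM or more, for the 5 Ly6 genes above that mean. With 6 libraries many genes reach a high Pearson correlation, 353 of them at least 0.9 with Ly6a and 581 with Ly6d, and all points share the same libraries and depth, so these are descriptions only. For Ly6a the closest were Bin1, which bends membranes (r = 0.999), Tcp1 and Cct8, subunits of a cytosolic chaperonin (0.992 and 0.991), Mta3 (0.991) and Etfa (0.99). Bin1 was at 6.25, 20.8 and 41.1 RPM across DMSO libraries 1 to 3, against 13.8, 31.3 and 66.2 RPM across YH250 libraries 1 to 3, the order of the libraries being that of Ly6a. For Ly6e they were Lsm12, Mad2l1, Hmgb1, the interleukin 7 receptor gene Il7r and Exosc9, with r of 0.987 to 0.994. For Ly6d they were Cd96, Brix1, Clec12a, Cd52 and the immunoglobulin light chain gene Iglc2 (0.994 to 0.997). For Ly6c2 they were Ms4a4b, the mast cell protease gene Cpa3, Atp5o, Ttk and a variable segment of the immunoglobulin kappa light chain (0.992 to 0.996). For Ly6k they were Memo1, Cenpi, Ostm1, Ccdc18 and Cnn3 (0.994 to 0.996).

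Among the 6 genes themselves, the correlation over the 6 libraries was highest for Ly6a with Ly6d (r = 0.973) and lowest for Ly6c1 with Ly6k (0.674).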
